A study of Mus musculus with 10 samples.

Results

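The 7 genes described here act in mitosis and at its end, when a furrow divides the cell between the separated chromosomes. Aurkb, Birc5 and Cdca8 encode subunits of the chromosomal passenger complex, and Ect2, Racgap1, Anln and Cep55 encode proteins of the furrow and midbody. The genes were matched by symbol and Entrez identifier in the authors' deposited comparison tables, which name 634 genes in all. The 7 genes had 11 probe sets, 6 on the U74Av2 array and 5 on the 430A array. Ect2, Racgap1, Aurkb and Birc5 were on both types, Anln and Cdca8 on U74Av2 and Cep55 on 430A. Because these tables list probe sets that the authors had selected for a change on the same arrays, a difference between the groups was built into the choice, and any other probe sets of the 7 genes were not analysed here.

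RNA came from ureteric buds of Swiss Webster mouse embryos at E11.5, cultured as isolated epithelium in Matrigel, a basement membrane gel. Buds treated with GDNF at 100 ng/mL for 16 h (plus GDNF) were compared with buds kept without it (minus GDNF). The ureteric bud is the epithelial tube that branches into the collecting ducts of the kidney, and GDNF is the ligand that drives this branching through the receptor Ret. Each array type had 3 plus GDNF and 2 minus GDNF arrays, 10 in all, and each array carried a pool of about 5 to 6 batches of 30 to 40 buds. Values are the deposited intensities, which measure the brightness of a probe set on a linear scale. Only values of the same probe set are set against each other, apart from sums over marker genes, in which bright probe sets weigh most.

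In a dividing cell the chromosomal passenger complex moves from the centromeres, where it corrects faulty attachments to the spindle, to the spindle midzone, where it helps to start cytokinesis. There the complex of Racgap1 with the kinesin Kif23 recruits and activates Ect2, an exchange factor that switches on the GTPase RhoA, and RhoA drives assembly of the actin and myosin ring. Anln links that ring to the membrane and to the septins, and Cep55 brings the membrane scission machinery to the midbody. The transcripts of such genes are made mostly late in the cell cycle, so their level in a tissue is widely used as a sign of how many cells are cycling. In these bulk samples, fewer dividing cells and less RNA per dividing cell cannot be told apart.

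Genes of late mitosis commonly carry the letters TTTGAA (the cell cycle genes homology region) near the transcription start, often beside a CCAAT box, to which the factor NF-Y binds. RefSeq promoter windows of GRCm38.p6, from 250 bases before to 50 after the start, were found for 6 of the 7 genes. Both strands were searched in the window listed at the top for each gene. TTTGAA was present in 5 of the 6 windows (all but that of Birc5), against 18.1% of the 27025 windows searched, and CCAAT in 3 of the 6, against 37.9%. The 3 windows that held both letter runs are those of Ect2, Racgap1 and Cdca8, against 7.12% of all windows. The palindromic variant TTTAAA was found in that of Birc5 (13.2% of all windows). The E2F letters TTTCCCGC (1.11%) and TTTGGCGC (0.537%) were in none of the 6. These matches describe the letters alone.

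The 3 windows with both are printed because they show the arrangement, and that of Anln because TTTGAA occurs there on each strand, side by side. Each is given 5′ to 3′ on the gene's strand, with TTTGAA and CCAAT, or their reverse complements TTCAAA and ATTGG, in capitals.
Ect2, chr3:27153829-27154128 (minus strand): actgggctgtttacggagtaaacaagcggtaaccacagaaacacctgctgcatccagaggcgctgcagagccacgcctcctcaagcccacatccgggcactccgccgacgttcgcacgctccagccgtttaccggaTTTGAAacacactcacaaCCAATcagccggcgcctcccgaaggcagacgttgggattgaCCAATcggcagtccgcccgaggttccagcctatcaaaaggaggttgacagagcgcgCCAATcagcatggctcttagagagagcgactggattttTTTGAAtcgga
Racgap1, chr15:99651607-99651906 (minus strand): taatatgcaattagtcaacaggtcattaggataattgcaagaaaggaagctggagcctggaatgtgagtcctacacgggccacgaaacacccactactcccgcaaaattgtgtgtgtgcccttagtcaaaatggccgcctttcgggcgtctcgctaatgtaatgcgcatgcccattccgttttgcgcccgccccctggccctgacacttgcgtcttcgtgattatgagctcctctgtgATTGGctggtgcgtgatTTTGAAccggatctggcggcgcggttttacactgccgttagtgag
Cdca8, chr4:124936868-124937167 (minus strand): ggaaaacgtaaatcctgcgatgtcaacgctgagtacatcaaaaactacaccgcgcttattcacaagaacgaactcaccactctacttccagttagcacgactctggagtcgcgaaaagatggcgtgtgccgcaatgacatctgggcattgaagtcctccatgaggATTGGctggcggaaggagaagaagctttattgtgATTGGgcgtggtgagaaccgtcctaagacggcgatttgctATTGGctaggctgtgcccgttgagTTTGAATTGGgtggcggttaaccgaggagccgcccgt
Anln, chr9:22389157-22389456 (minus strand): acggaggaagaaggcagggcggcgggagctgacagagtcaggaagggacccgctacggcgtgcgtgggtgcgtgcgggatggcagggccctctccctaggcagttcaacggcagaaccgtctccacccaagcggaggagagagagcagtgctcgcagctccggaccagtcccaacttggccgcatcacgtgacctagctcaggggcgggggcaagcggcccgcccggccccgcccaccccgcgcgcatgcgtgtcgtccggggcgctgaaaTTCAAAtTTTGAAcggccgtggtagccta

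In the window of Racgap1 the run ATTGG begins at position -12 and TTTGAA at position 6, counted from 1 at the transcription start. Ect2 has CCAAT beginning at positions -96, -55 and 2, and TTTGAA at -114 and 40. Cdca8 has ATTGG beginning at -85, -51, -11 and 19 and TTTGAA at 14, whose last base is also the first base of the ATTGG at 19. In Anln TTCAAA begins at 22 and TTTGAA at 29. The single match of Cep55 is TTCAAA at 25.

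The regulators of RhoA at the furrow come at the start of this order. Ect2 measured 478.5, 464 and 489 on the plus GDNF arrays of U74Av2, against 171 and 158 on the minus GDNF arrays. The lowest plus array stood 2.72 times above the highest minus array. On 430A it measured 679, 649.5 and 675 with GDNF, against 311 and 283 without, again with no overlap. The change was log2 1.54 ± 0.13 (SE) on U74Av2 (limma adjusted p = 0.0604) and 1.17 ± 0.10 on 430A (adjusted p = 0.0544), where neither passed the threshold of 0.05. By the size of its p, Ect2 was number 3 of the 10588 probe sets tested on U74Av2 and number 5 of 19521 on 430A.

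Racgap1, the GTPase-activating partner of Ect2 in the midzone, gave different pictures on the array types. On 430A it measured 417, 355 and 385 with GDNF, against 191 and 181 without, and the groups did not overlap. That change was log2 1.05 ± 0.11 (limma adjusted p = 0.0544). On U74Av2 the values were 881, 625 and 991 with GDNF, against 637 and 1024 without. There the highest and next lowest of the 5 values were the minus arrays, so the groups overlapped entirely, and the change was log2 0.02 ± 0.29 (adjusted p = 0.989).

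Anln, the anillin scaffold of the contractile ring, had the smallest change of the probe sets whose groups did not overlap. It measured 636, 474 and 558 with GDNF, against 360.1 and 395 without, on U74Av2. The lowest plus array was 1.20 times the highest minus array, and the change was log2 0.55 ± 0.18 (limma adjusted p = 0.41). In the authors' deposited table the lower bound of its fold was 1.26, beside the authors' limit of 1.2. Cep55, which acts in abscission, measured 428, 385 and 401 with GDNF, against 179.8 and 192 without, on 430A. The lowest plus array was 2.00 times the highest minus array, and the change was log2 1.12 ± 0.10 (adjusted p = 0.0544).

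The 3 passenger complex genes follow. Aurkb is the kinase of the complex. It measured 534, 465 and 557 with GDNF, against 259 and 251 without, on U74Av2, with log2 1.02 ± 0.15 (limma adjusted p = 0.146). On 430A it measured 417, 378 and 333 with GDNF, against 228 and 204 without, with log2 0.79 ± 0.13 (adjusted p = 0.0962). Groups did not overlap on either type. The 430A probe set carries the suffix _x_at, which in Affymetrix naming marks a set with some probes that can match other transcripts.

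Birc5 (survivin), the subunit that anchors the complex at centromeres, was alike on the array types. On U74Av2 it measured 832, 742 and 704 with GDNF, against 385 and 329 without, with log2 1.09 ± 0.16 (limma adjusted p = 0.146). On 430A it measured 850.5, 827 and 827 with GDNF, against 432 and 381 without, with log2 1.04 ± 0.10 (adjusted p = 0.0544). Cdca8 (borealin), which holds the complex together with Birc5, measured 841, 735 and 659 with GDNF, against 318 and 236 without, on U74Av2. Its change was log2 1.44 ± 0.20 (adjusted p = 0.146), and its lowest plus array was 2.07 times its highest minus array.

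**Figure D1:**
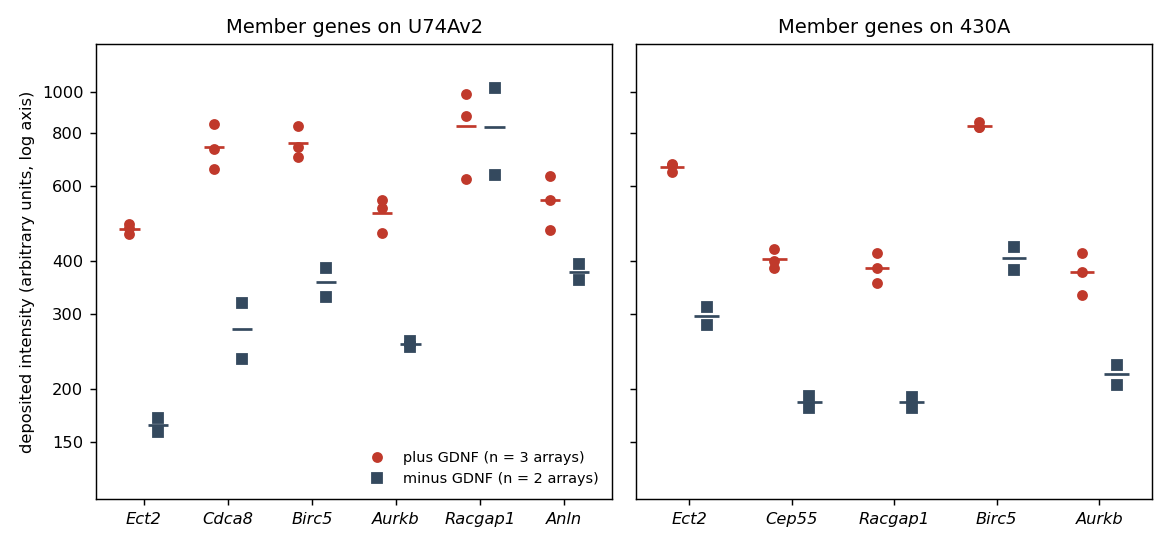
Deposited intensity (arbitrary units, log axis) of each probe set of the 7 genes on U74Av2 (left) and 430A (right), with plus GDNF arrays as circles (n = 3), minus GDNF arrays as squares (n = 2) and group means as lines. Plus lies above minus without overlap for 10 of the 11 probe sets, against 17.3% of all probe sets on U74Av2 and 14.9% on 430A. Racgap1 on U74Av2, with means of 832 and 830.3, is the exception. The authors had selected these probe sets for a change on the same arrays.

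Counted by type, 0 of the 6 probe sets on U74Av2 passed an adjusted p of 0.05 (limma, Benjamini-Hochberg over all probe sets), where 1 of the 10588 tested was called as higher (0.00944%). On 430A 0 of 5 passed, where 0 of 19521 were called (0%). At an adjusted p under 0.1, a looser limit, Ect2 was called on U74Av2 (0.0472% of all probe sets called as higher there) and all 5 probe sets on 430A (0.902%). An unadjusted p under 0.05 with the higher level in plus GDNF was reached by 5 of 6 probe sets on U74Av2 and 5 of 5 on 430A, against 7.77% and 8.21% of all probe sets. Every plus array stood above every minus array for 5 of 6 and 5 of 5, against 17.3% and 14.9% of all probe sets. Since the authors had selected these probe sets for their difference, these counts describe them and carry no further weight. The median log2 change was 1.06 over the 6 probe sets on U74Av2 and 1.05 over the 5 on 430A, which are different sets of genes. Over all probe sets tested the medians were -0.04 and -0.07.

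**Figure D2:**
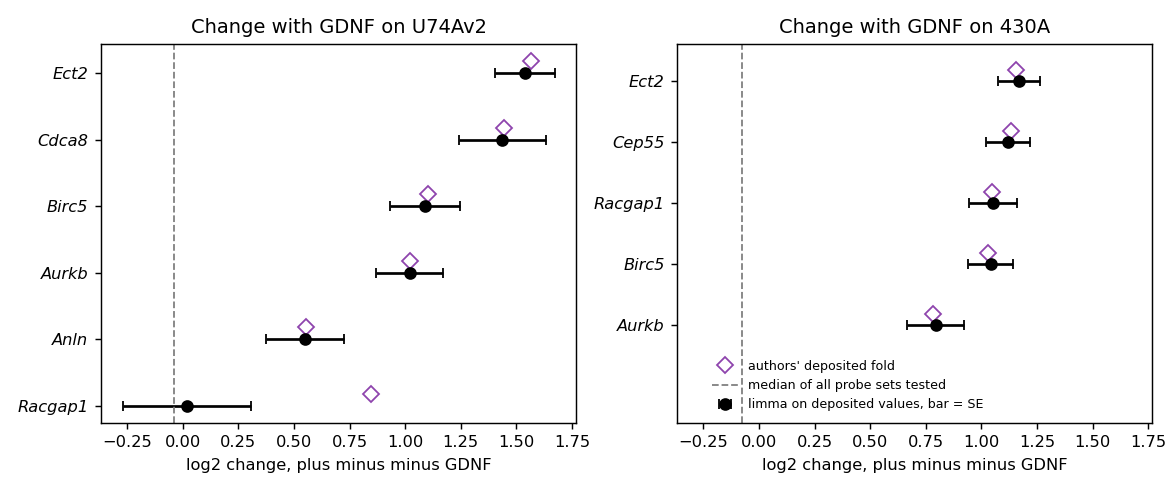
Log2 change, plus minus minus GDNF, of each probe set on U74Av2 (left) and 430A (right). Filled circles are limma estimates from the deposited intensities with their SE, open diamonds are the log2 of the fold in the authors' deposited table, and the dashed line is the median of all probe sets tested (-0.04 and -0.07). Circle and diamond lie together except for Racgap1 on U74Av2.

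Over both types, with array type as a term in the fit, 3 of the 4 genes measured on each rose. Ect2 rose 2.56-fold (log2 1.35 ± 0.10 SE, limma adjusted p = 1.95e-05), Birc5 rose 2.09-fold (log2 1.07 ± 0.09, adjusted p = 6.27e-05) and Aurkb rose 1.88-fold (log2 0.91 ± 0.10, adjusted p = 0.000277). Racgap1 stood at log2 0.53 ± 0.21 and did not pass (adjusted p = 1). Of the 184 genes named on both types, 88% were called as higher in that fit, so passing says little about these genes in particular. Same-named arrays on U74Av2 and 430A shared part of their spread around the group means, although the series text describes a different pool for each chip. With the sample name as a random block, where 159 of the 184 genes were called in either direction, the 3 genes passed again, with adjusted p = 0.000517 for Ect2 and for Birc5 and 0.00461 for Aurkb.

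The difference between the types was tested as an interaction, 430A minus U74Av2, over the 184 genes (0.543% called). Of the 4 genes measured on both, 0 passed in limma. Ect2 differed by log2 -0.37 ± 0.17 (adjusted p = 0.747), Aurkb by -0.23 ± 0.20 (adjusted p = 0.859) and Birc5 by -0.05 ± 0.19 (adjusted p = 0.928). Racgap1 differed by 1.03 ± 0.31 (adjusted p = 0.219), and with the sample name as a random block its difference passed (1.03 ± 0.24, adjusted p = 0.0237), as 1 of 6 genes called of the 184. It also passed without U74Av2 minus array 1 (1.38 ± 0.29, adjusted p = 0.0213), as 1 of 5 called.

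The levels behind the authors' deposited table differ from the deposited values for Racgap1 on U74Av2. The authors' deposited table for U74Av2 names its groups experiment and baseline, read here as plus and minus GDNF because its folds run the same way as the values of the other 5 probe sets. The authors' deposited table gives means of 257 with GDNF and 143 without, a fold of 1.80 with a lower bound of 1.45. The deposited values average 832 ± 187 (SD, n = 3) on plus GDNF arrays and 830.3 ± 274 (SD, n = 2) on minus GDNF arrays, which is 3.24 and 5.82 times the means in the authors' deposited table. From these values the lower 90% bound of the fold was 0.668. For the other 5 probe sets of the 7 genes on U74Av2, the means in the authors' deposited table were between 1.05 and 1.10 times those of the values, near the medians of 1.07 and 1.08 over all 312 listed. Of those 312, 10 had a mean more than 0.5 away on the log2 scale, and Racgap1 was the farthest at 2.54. On 430A 0 of 693 were that far apart. Which of the levels belongs to this probe set is not settled by the files.

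**Figure D3:**
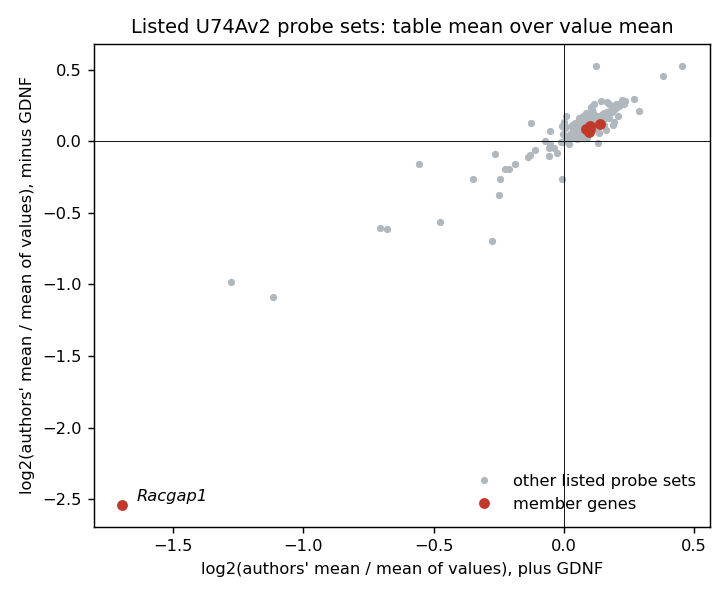
Log2 ratio of the group mean in the authors' deposited table to the mean of the deposited values, for plus GDNF (horizontal) and minus GDNF (vertical), over the 312 listed U74Av2 probe sets. The other 5 probe sets of the genes described lie with the bulk, and Racgap1 lies alone at -1.70 and -2.54.

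Control probe sets at either end of the Gapdh transcript gave a measure of RNA quality on each array, the ratio of the signal at the 3′ end of Gapdh to that at its 5′ end. It lay between 1.06 and 1.52 on plus GDNF arrays and between 1.09 and 1.74 on minus GDNF arrays, with the highest ratio of each group on plus array 3 and minus array 2 of each type. On U74Av2, Racgap1 followed this ratio on all 5 arrays. Ordered by a rising ratio, its values were 625 (plus array 2, ratio 1.06), 637 (minus array 1, 1.10), 881 (plus array 1, 1.22), 991 (plus array 3, 1.46) and 1024 (minus array 2, 1.60). Intensity rose with the ratio on all 5 arrays for 14.2% of all U74Av2 probe sets. On 430A, in the ratio order of its own arrays, it did so for 2.32%. No other probe set of the 7 genes did so on either type. By the b-Actin ratio the order broke, since minus array 1 (1.39) came before plus array 2 (1.49) while Racgap1 was at 637 and 625 there. The part of RNA quality in the Racgap1 result was not tested, and this order was noticed after the values were seen.

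**Figure D4:**
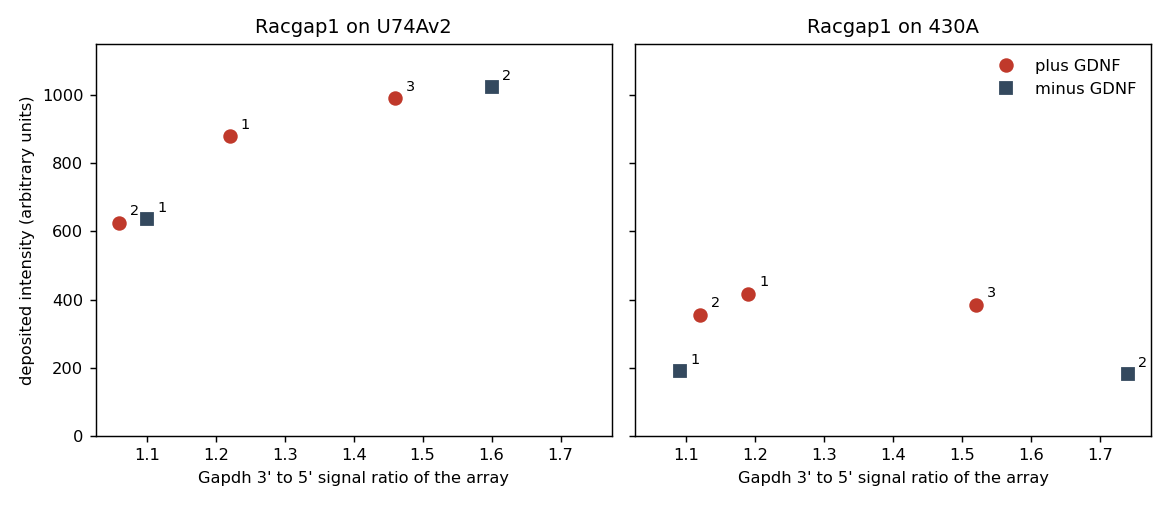
Deposited intensity of Racgap1 (arbitrary units, from 0) against the Gapdh 3′ to 5′ ratio of the same array, on U74Av2 (left) and 430A (right), with plus GDNF arrays as circles and minus GDNF arrays as squares, each numbered by its sample. On U74Av2 the 5 values climb with the ratio, from 625 to 1024, whatever the group, and on 430A the minus arrays (191 and 181) lie below the plus arrays (355 to 417) at either end of the ratio.

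Among arrays of the same group, the order of the arrays was partly shared between the genes. The share of all probe sets with the same order was not counted, so the order may not be particular to these genes. On 430A plus array 1 held the highest of the 3 plus values for all 5 probe sets, and plus array 2 the lowest for 4. Minus array 1 was above minus array 2 for 4 of the 5, all but Cep55. On U74Av2 the order was mixed: plus arrays 1 and 3 each held the highest plus value for 3 of 6. Plus array 2 was the lowest for 4 of 6 and plus array 3 for 2. Minus array 1 was above minus array 2 for 4 of 6, the others being Racgap1 and Anln.

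A wider list of 38 genes of the furrow, midzone, passenger complex and abscission was named in part, 7 genes on U74Av2 and 8 on 430A. All were higher with GDNF on each type, with a median log2 change of 1.18 on U74Av2 and 0.89 on 430A, and none passed an adjusted p of 0.05 in limma on 1 type alone (7 of 7 and 8 of 8 were higher at an unadjusted p under 0.05, as were 238 of the 275 genes named on U74Av2 and 416 of the 543 named on 430A, against 7.77% and 8.21% of all probe sets). Incenp, the scaffold that joins Aurkb to Birc5 and Cdca8, measured 549, 572 and 733 with GDNF, against 313 and 242 without, on 430A (log2 1.16 ± 0.18, limma adjusted p = 0.0856). Like that of Aurkb, its probe set on 430A carries the suffix _x_at. Bub1, the checkpoint kinase whose histone mark recruits the complex to centromeres, measured 646, 641 and 575 there with GDNF, against 299.8 and 261 without (log2 1.15 ± 0.11, adjusted p = 0.0544). Kif20a, the kinesin that carries the complex to the midzone, stood at log2 1.04 ± 0.22 (adjusted p = 0.153), and Prc1, which bundles midzone microtubules, at 0.92 ± 0.13 (adjusted p = 0.0797). Kif4, Plk1, Kif2c, Sgo1 and Rcc2 were the other named members, the last 2 with the smallest changes on 430A (0.49 ± 0.09 and 0.48 ± 0.10). Over both types 6 of 6 passed, from Incenp at log2 0.93 ± 0.15 (adjusted p = 0.0033) to Bub1 at 1.26 ± 0.19 (adjusted p = 0.00158), where 88% of all 184 genes were called as higher.

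The 7 genes were set beside lists from other parts of the cell cycle. On 430A the median log2 change of the 5 named there was 1.05. It compares with 0.93 for 25 named genes of mitotic entry, spindle and kinetochore and 0.74 for 27 named genes of DNA replication. On U74Av2 the median of 1.06 for the 6 named there compares with 1.15 for 18 mitotic genes and 0.92 for 16 replication genes. Over all named genes, chosen for change by the authors, the medians were 0.60 on 430A and 0.78 on U74Av2. The ranges overlapped: on 430A the 5 genes (0.79 to 1.17) lay inside both the mitotic range (0.60 to 1.52) and the replication range (0.46 to 1.29). On U74Av2 Racgap1 (0.02) and Anln (0.55) lay below the lowest gene of each. Ect2 (1.537) and Cdca8 (1.437) lay above the highest replication gene there (1.345), but not above the highest mitotic gene (1.539). The differences between these lists were not tested.

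**Figure D5:**
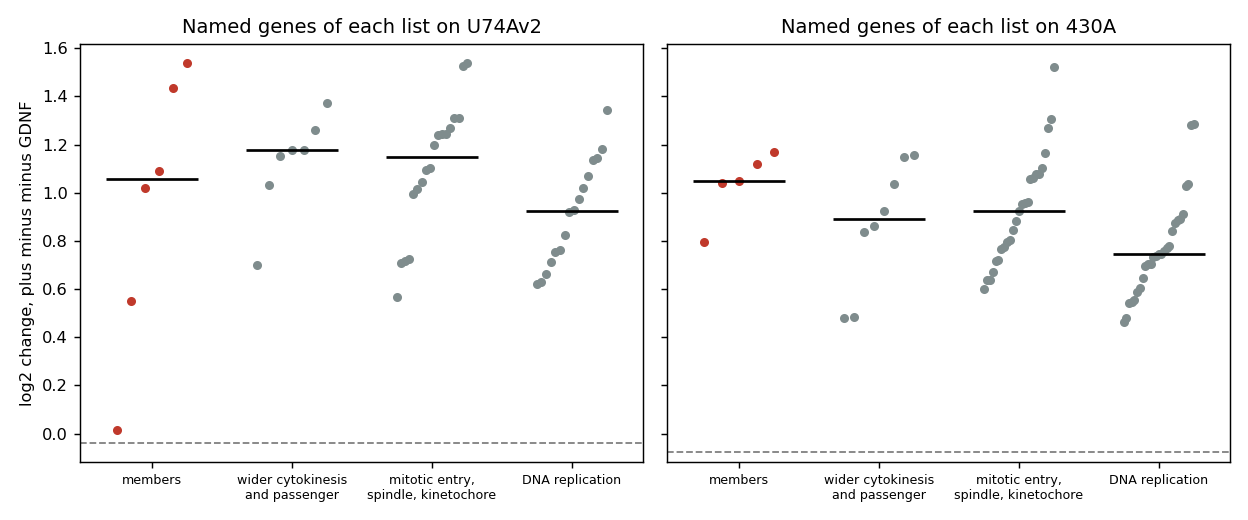
Log2 change, plus minus minus GDNF, of every named gene of each list on U74Av2 (left) and 430A (right), with the list's median as a bar and the median of all probe sets tested as a dashed line. The lists overlap on each type, and the lowest point is Racgap1 on U74Av2 at 0.02.

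The genes nearest in pattern to the mean of Ect2, Racgap1, Aurkb and Birc5 were found by the root mean square difference of log2 values, centred within each type, over the 10 arrays. Of 180 other genes they were Tipin (0.0764), Ctps (0.0829), Ahcy (0.0971), Kif22 (0.10) and Ccna2 (0.104), beside a median of 0.22 over the 180. Of the genes in the mean, Racgap1 lay at 0.356 and Ect2 at 0.231, both beyond that median, and Birc5 at 0.119 and Aurkb at 0.102. With Racgap1 left out of the mean, an alternative added once its values were known, the nearest 5 were Cdc7 (0.0775), Kif11 (0.0882), Smc4 (0.0988), Kif2c (0.0991) and Pola1 (0.0992), and 0 genes were shared with the 5 above. Birc5, itself part of that mean, then lay at 0.0711.

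Markers of the tissue and of cells that could accompany it are given as the named part of each list. Bud epithelium markers were named for 7 of 13 genes on 430A, and their summed intensity was between 15846 and 16303 with GDNF and between 16934 and 17174 without. On U74Av2, 3 of 13 (Ret, Wnt11 and Calb1) summed to between 4339 and 5568 with GDNF and between 1711 and 2223 without. The 430A sum hides a split. Ret, Wnt11, Calb1 and Lhx1 were higher with GDNF (log2 1.49, 1.04, 0.72 and 0.64), and Krt8, Cdh16 and Npnt were lower (-0.52, -0.92 and -0.77), with limma adjusted p between 0.113 and 0.214. Stromal markers were named for 3 of 11 genes on 430A, with sums between 1464 and 2018 with GDNF and between 2796 and 2798 without, and for 1 of 11 on U74Av2, Acta2, between 399 and 513 with GDNF and between 507 and 705 without. Acta2 is also 1 of the 10 U74Av2 probe sets whose means in the authors' deposited table lie far from the values (log2 -1.28 with GDNF and -0.98 without). Mesenchymal markers were named for 2 of 9 genes on 430A, with sums between 710 and 852 with GDNF and between 1122 and 1130.2 without. No marker of endothelium or blood was named, so their levels were not looked at, and this does not show that such cells were absent. Each marker was named only because the authors had selected it for a change on these arrays. A difference in each was thus built in, and unchanged markers could not enter the sums. The stromal, mesenchymal and bud epithelium sums on 430A all ran opposite to the genes described. On U74Av2 the bud epithelium sum ran the same way as these genes. The part of the marked cells in the result was not tested.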

How the data were processed

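Each deposited value is an intensity, unlogged, for 1 of 12488 probe sets (U74Av2) or 22690 (430A). How the authors normalized it is not given in the sources used here. Groups had been compared by the authors in dChip 1.3, per the series text, and the authors' deposited tables give signed folds (unit score) for 312 and 693 probe sets whose lower 90% bound exceeded 1.2 and whose means differed by over 100. Array medians lay between 211 and 248 on U74Av2 and between 281 and 321 on 430A, and the number of arrays limits the precision.

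Groups and sample numbers came from the titles. Genes were named through Entrez identifiers and RefSeq (GRCm38.p6, names and promoter windows only). The 7 genes and all lists were chosen with earlier results of these data known. Intensities were floored at the 20th percentile of each table (65.0 and 143), and log2 was taken. Tests left out 66 and 64 control probe sets, and 1834 and 3105 that never exceeded the floor. Fits per type used limma 3.58.1 (R 4.3.3, lmFit, eBayes, two-sided, Benjamini-Hochberg over all probe sets tested, threshold 0.05). On data simulated with noise independent between arrays, the fit was required only to return planted changes on average. The fit over both types used, for each of 184 genes, the probe set with the highest mean per type, with array type as a term, and its adjustment counted all 10588 U74Av2 tests, unnamed ones with a p of 1. Its genes were selected by the authors on the same arrays, so its p-values may be too small. The series text gives each chip its own pool of buds, and a p-value reflects only how these pools and arrays vary. Same-named arrays of the types correlated in their deviations from the group means by 0.408 to 0.592 across the 184 genes, so a random block was also fitted. Named genes were the 7, the named genes of the wider list (values for the 4 largest changes on 430A), and the 5 genes nearest in profile. The closing section gives the alternatives.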

Additional observations from a re-analysis of the deposited data

Results flagged for a closer look

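The change of Racgap1 was larger on 430A than on U74Av2, by log2 1.03 ± 0.24 (SE), in limma's interaction test with a random block for arrays of the same sample name (adjusted p = 0.0237), where 6 of the 184 genes were called. The difference itself was what drew attention to it. On 430A all 3 plus GDNF arrays were above both minus GDNF arrays, and on U74Av2 the groups overlapped. The difference rests on U74Av2 values whose plus and minus GDNF means are 3.24 and 5.82 times those in the authors' deposited table. The authors' deposited folds for Racgap1 were 1.80 on U74Av2 and 2.07 on 430A. The U74Av2 values also followed the Gapdh ratio of the arrays, as described above, and the part of RNA quality was not tested. Without the random block the same difference had adjusted p = 0.219 (1 of 184 called), and over that result's other settings the adjusted p ran from 0.0213 to 0.946.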

How the results depend on the processing

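Racgap1 on U74Av2 changed direction with the setting: log2 -0.087 after quantile normalization, -0.12 with sample number as a replicate block, and between -0.33 and 0.36 when each array was left out in turn, the negative values being -0.04 (plus array 1 left out), -0.12 (plus array 3) and -0.33 (minus array 1). No other probe set of the 7 genes changed direction under any setting run. On U74Av2, 1 probe set passed among probe sets above the median level or at an adjusted p under 0.1, against 0 otherwise, and both times it was Ect2 (5 of all probe sets passed each time). On 430A, 4 probe sets passed with the floor at the 10th percentile (30 of all), 4 with a trended robust variance (48), 5 among probe sets above the median level (152) and 5 at an adjusted p under 0.1 (198), all against 0. A floor at the 40th percentile gave a median log2 change of 0.78 on 430A, where raising the floor lifted the minus GDNF values of Cep55, Racgap1 and Aurkb. Without 1 array the median ran from 0.99 to 1.12 on U74Av2 and from 1.01 to 1.11 on 430A, and 0 probe sets passed on either type. Over both types 3 to 4 genes passed without 1 array, Racgap1 being the fourth without U74Av2 minus array 2 (log2 0.79, adjusted p = 0.0295), and it also passed when adjusted over the named genes alone (adjusted p = 0.0247), where 184 of 184 genes did. Ect2, Aurkb and Birc5 passed over both types under every setting run, including averaging of same-named arrays and no moderation, which were chosen after the data were seen. So did most genes: of 184, 158 passed with averaging, 135 with no moderation and 161 with the replicate block. The interaction called 1 of the 4 genes, Racgap1, with the random block (6 of 184 called), and 0 to 1 without 1 array (5 of 184 without U74Av2 minus array 1), against 1 of 184 called without the block. Deviations of same-numbered plus and minus arrays correlated by 0.162 and -0.702 on U74Av2 and by -0.0153 and -0.623 on 430A. The deviations of the 2 minus arrays from their mean mirror each other. These values therefore cannot decide whether sample numbers pair plus with minus arrays. With the replicate block 0 probe sets passed on each type, and 3 genes passed over both.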
